A study of Mus musculus with 8 samples.

Results

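The clustered histone genes encode the bulk of the histone proteins made in dividing cells and lie side by side in a few genomic clusters. Members were the genes of the deposited table whose gene ID maps to a current or older symbol of the clustered H1, H2A, H2B, H3 and H4 genes. By this rule 69 of 24573 genes were members, of which 63 matched by their current symbol and 6 only by an older name (H2bu2, H2bu1-ps, H2aw, H4bc24, H2af-ps2 and H4f16). They comprised 6 H1, 19 H2A, 19 H2B, 12 H3 and 13 H4 genes, with 2 pseudogenes among them (H2bu1-ps and H2af-ps2). On mouse build GRCm38 (mm10), 55 lay on chromosome 13, 10 in the cluster on chromosome 3, 3 on chromosome 11 and 1 on chromosome 6. Those on chromosome 13 lie in the large cluster, except the pseudogene H2af-ps2, which lies apart from it at 51200084 to 51203066. Their RNA was measured in proliferating C2C12 cells, a mouse myoblast line that can form myotubes. All cells carried a lentivirus with a short hairpin RNA (shRNA) and had been selected with puromycin. The 4 groups, of 2 libraries each, received a scrambled shRNA as control or one against Brd9, Baf250A or Baf180, for which the labels name 1 hairpin each. Brd9, Baf250A (gene Arid1a) and Baf180 (gene Pbrm1) are subunits of different forms of the SWI/SNF chromatin remodelling complex, and the comparisons ask what RNA changes follow the loss of each. The labels do not state whether the 2 libraries per group derive from independent cultures, and the spread behind each p-value may therefore be technical.

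Most clustered histone genes are expressed in S phase, when new DNA has to be packaged, and their mRNAs are unusual in ending in a short RNA hairpin in place of a poly(A) tail. The hairpin is bound by the stem-loop binding protein Slbp, and the U7 small nuclear ribonucleoprotein directs the cut behind it. Some of these genes can also make polyadenylated transcripts, H1f2 among them, and variants encoded outside the clusters, such as H3f3a and H2az1, are polyadenylated and made throughout the cell cycle. The sources used here do not say whether poly(A) RNA was selected, and the levels below are those of the RNA that entered the libraries.

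The terminal hairpin is shown first, because it defines how these mRNAs end and because the most abundant members differ from the rest beside it. Transcripts were searched behind the stop codon for 16 bases made of a pair of G, any 4 bases, a loop of 4 bases that starts with a pair of T, and the reverse complement of the first arm. Of 68 members with a GENCODE transcript, 44 (64.7%) held such a hairpin, starting 21 to 58 bases behind the stop codon. The same search found one in 87 of 20597 coding genes (0.422%), members included. Of the 24 members without it, 17 have transcripts annotated for fewer than 20 bases behind the stop codon, so the window to search was short. The hairpin took 6 forms: 26 members had the form listed first below, 7 the next and 6 the one after it, the remaining 5 having 1 of 3 others. In the sequences, capitals mark the hairpin and lower case the run of A bases directly before it, in DNA letters, 5′ to 3′.
Most common hairpin: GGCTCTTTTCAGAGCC
Next form: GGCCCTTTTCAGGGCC
Form after it: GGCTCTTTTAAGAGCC
H2ac24: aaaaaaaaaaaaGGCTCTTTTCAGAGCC
H2ac23: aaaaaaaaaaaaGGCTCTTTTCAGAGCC
H1f2: aaaaGGCTCTTTTCAGAGCC
H2aw: aaaGGCTCTTTTCAGAGCC
H2ac24 and H2ac23 carry 12 A bases before the hairpin, while no other member has more than 7. Over all coding genes searched, these were the only 2 with a hairpin that follows 10 or more A bases. The annotated transcripts of H1f2 and H2aw run on for 840 and 1643 bases behind their hairpin and have a polyadenylation signal near their end. Their deposited gene lengths are shorter, at 725 and 508 bases. Other members also have both a hairpin and such a signal, among them H2bc6 and H4f16 with 1861 and 2445 bases behind the hairpin. H2bc4, a spliced gene, has an annotated transcript in which neither a hairpin nor such a signal near its end was found.

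H2ac24 (Hist1h2ap, gene ID 319171, chromosome 13, 21833024 to 21833475, minus strand) and H2ac23 (Hist1h2ao, gene ID 665433, chromosome 13, 21810367 to 21810918, plus strand), which encode canonical H2A, held 84.3% to 93.3% of all member counts in every library. Per kilobase of gene length, their mean levels over the 8 libraries were 626 and 208 CPM (counts per 1e6 of the TMM-scaled library size). The next members were H1f2 at 13.4 and H2bc4 at 12.01 CPM per kilobase, then H2aw at 4.83. H2ac18 came after it at 3.43, and the other 63 members were lower. Of the 69, 58 had fewer than 100 counts over all 8 libraries together, and all members together took up 0.0222% to 0.0713% of the counts of a library. The testis histone genes H1f6 and H2bc1 had no count in any library, which allows up to 0.147 to 0.169 CPM (3 counts of the library total), and the testis gene H2ac1 had 1 count in all. Genes with few counts and near-identical copies limit what single members can show. H2ac23 and H2ac24, H2ac18 and H2ac19, H2bc23 and H4bc24, H3c14 and H3c15, and H4c17 and H4c18 share all 50-base windows of their coding sequences, so reads could be divided between them arbitrarily. H2bc23 and H4bc24 indeed carried the same counts in every library.

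The 250 bases before the start of 62 members were taken from RefSeq (GRCm38.p6) and searched on both strands, because members that moved together are described below. CCAAT was present in 82.3% of these members against 34.5% of 27025 genes, and at 2 or more positions in 69.4% against 10.5%. TATAAA was in 46.8% against 13%, and the octamer ATTTGCAT in 21% against 1.61%. The octamer was found before 7 of 18 H2A and 6 of 16 H2B members and before none of 6 H1, 10 H3 and 12 H4 members, and AAACACA, known as the H1 box, before 5 of 6 H1 members against 6.22% of all genes. Overlapping matches of different motifs were each counted, and a match is only a match of letters. Some H2A and H2B members start head to head within 250 bases, such as H2ac12 (minus strand, from 22035643) and H2bc12 (plus strand, from 22035821). A site between such genes can count for both, so the windows are not all independent sequences. The window of H2bc12 also reaches into H2ac12. Capitals mark the matches in the promoters below, of the most abundant member and of a pair that rose in the Baf180 libraries.
H2ac24 promoter, chr13:21833476-21833725, minus strand: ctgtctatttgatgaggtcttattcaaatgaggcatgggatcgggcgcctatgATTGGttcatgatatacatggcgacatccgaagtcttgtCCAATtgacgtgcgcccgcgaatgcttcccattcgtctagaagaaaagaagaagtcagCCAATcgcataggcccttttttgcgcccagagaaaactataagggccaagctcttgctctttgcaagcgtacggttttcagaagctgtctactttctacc
H1f2 promoter, chr13:23738557-23738806, plus strand: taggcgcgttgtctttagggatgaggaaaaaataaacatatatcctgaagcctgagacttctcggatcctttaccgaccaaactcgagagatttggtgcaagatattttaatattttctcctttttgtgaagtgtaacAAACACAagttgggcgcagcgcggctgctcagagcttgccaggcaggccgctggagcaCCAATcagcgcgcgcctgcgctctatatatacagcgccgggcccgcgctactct
H2aw promoter, chr11:58954435-58954684, plus strand: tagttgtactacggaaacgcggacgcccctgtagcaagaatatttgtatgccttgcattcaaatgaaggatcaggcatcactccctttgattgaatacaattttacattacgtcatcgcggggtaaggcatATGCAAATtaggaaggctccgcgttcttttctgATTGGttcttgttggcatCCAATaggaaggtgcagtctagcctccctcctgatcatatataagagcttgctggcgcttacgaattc
The H2bc4 promoter was not in that table.

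Library totals ran from 17763076 to 20400863 estimated counts. Each targeted gene was lowest in its own knockdown: Brd9 was at 40.3 and 36.8 CPM in scramble and 7.61 and 7.07 in its knockdown, Arid1a at 159 and 157 against 67.1 and 64.2, and Pbrm1 at 49.2 and 56.0 against 3.77 and 4.69. Of 5 myoblast marker genes, all were detected in every library. In Baf250A 3 of them fell, Cdh15 (log2 fold change -2.46, adjusted p = 8.29e-05), Itga7 (-2.06, adjusted p = 0.000119) and Myf5 (-0.86, adjusted p = 0.0331). In Baf180 Myod1 (1.08, adjusted p = 0.00295), Cdh15 (0.81, adjusted p = 0.013) and Des (0.81, adjusted p = 0.0323) rose and Myf5 fell (-1.49, adjusted p = 0.00384), and in Brd9 none passed (1 had an unadjusted p below 0.05, DESeq2 called 0, and 2 fell with the GC and length offsets). Of 9 marker genes of endothelial, blood, fat and epithelial cells 3 (Adgre1, Plin1 and Epcam) had no count and the summed level of the list was 1.83 to 2.96 CPM. Over all genes, those of highest GC content (1229 genes of 58.7% and more) sat above their mean level in the Baf180 libraries, by a median of 0.68 (replicate 1) and 0.30 (replicate 2) on the log2 scale, and below it in the Baf250A libraries, by -0.20 and -0.52, with -0.22 and 0.03 in Brd9. Members are GC-rich (median 62.3% against 49.5% for all genes) and short (480 against 2101 bases), so this trend bears on their values. A fit with GC and length offsets is therefore given beside many of the results it alters. These offsets also remove any true change that follows GC content.

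In the Baf180 knockdown the linker histone gene H1f2, the H2B gene H2bc4 and the H2A gene H2aw rose, and the H3 gene H3c10 fell. H1f2 (Hist1h1c, gene ID 50708, chromosome 13, 23738807 to 23739531), which encodes linker histone H1.2, had 6.66 and 8.61 CPM in scramble, 7.31 and 7.44 in Brd9, 7.79 and 6.86 in Baf250A, and 18.1 and 15.2 in Baf180. Both Baf180 libraries lay above the other 6, which overlapped one another. Means were 7.64 ± 1.38 CPM in scramble and 16.6 ± 2.03 in Baf180 (SD, n = 2 each). The log2 fold change of Baf180 over scramble was 1.12 (SE 0.20, adjusted p = 0.00448 in edgeR's quasi-likelihood test). H2bc4 (Hist1h2bc, gene ID 68024, chromosome 13, 23684199 to 23692480), which encodes canonical H2B, had 4.94 and 4.23 CPM in scramble, 6.84 and 6.25 in Brd9, 6.13 and 7.19 in Baf250A, and 15.5 and 18.9 in Baf180. Scramble was lowest, at 4.58 ± 0.504 CPM (SD, n = 2), and the Baf180 libraries again stood above all others at 17.2 ± 2.38, with a log2 fold change of 1.91 (SE 0.21, adjusted p = 0.000428). H2aw (Hist3h2a, gene ID 319162, chromosome 11, 58954685 to 58955192), an H2A gene of the small chromosome 11 cluster, had 1.80 and 1.68 CPM in scramble, 2.28 and 2.41 in Brd9, 1.68 and 1.19 in Baf250A, and 4.12 and 4.47 in Baf180, with a log2 fold change of 1.30 (SE 0.27, adjusted p = 0.00741). Its groups did not overlap between Baf180 and scramble. H2aw overlaps Trim17, which had 0 to 4 counts per library. In these bulk libraries a change in the share of cells that express a gene and in RNA per cell cannot be told apart. Without scramble replicate 2 the call on H2aw was lost (adjusted p = 0.0573). With GC and length offsets the log2 fold changes of H1f2, H2bc4 and H2aw were 0.63, 1.46 and 0.93, and each of the 3 was still called (adjusted p = 0.0178, 0.00274 and 0.0244). In CPM with these offsets, Baf180 replicate 1 no longer stood above all other groups for H2bc4 and H2aw. H2bc4 was at 9.23 there and 10.5 in Baf250A replicate 2, and H2aw at 2.48 there and 2.89 in Brd9 replicate 1.

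**Figure D1:**
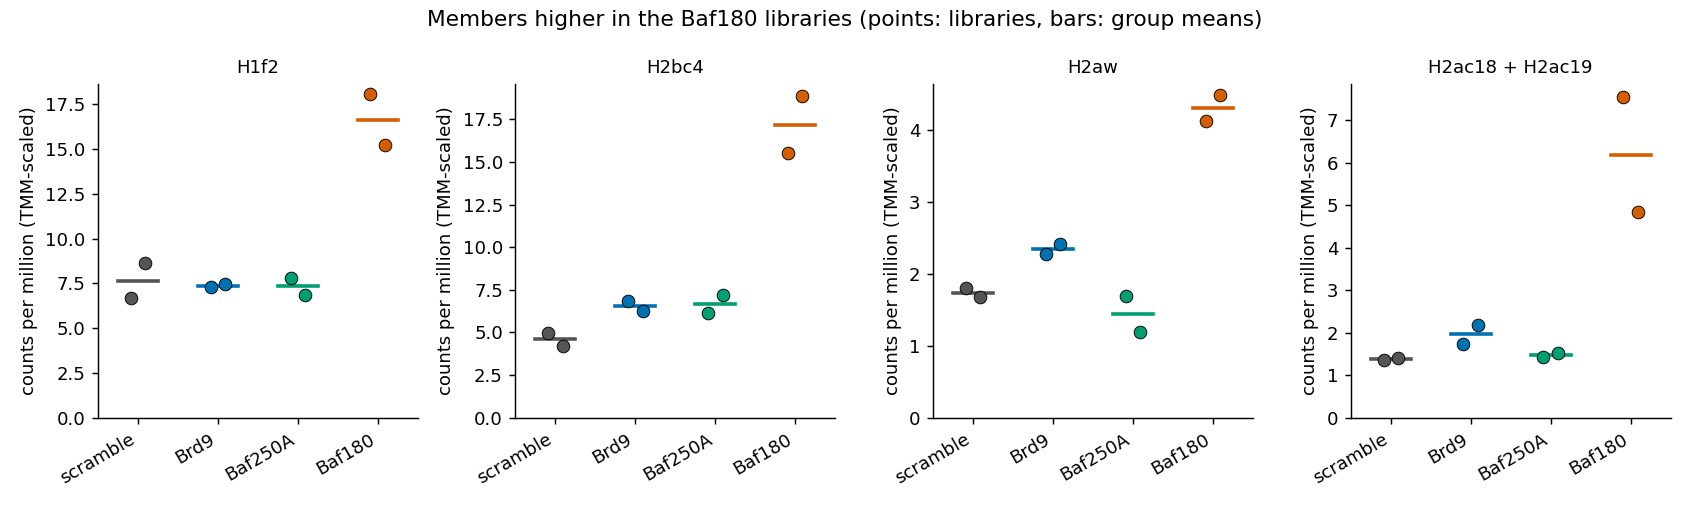
Level of H1f2, H2bc4, H2aw and the summed copies H2ac18 and H2ac19, in TMM-scaled CPM (vertical axis, from 0), in each of the 4 shRNA groups. Points are libraries and bars the group means of 2. In each panel, drawn without GC and length offsets, both Baf180 points lie above all others, for H2bc4 at 15.5 and 18.9 CPM.

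The H2A genes H2ac18 (Hist2h2aa1) and H2ac19 (Hist2h2aa2), a copy pair on chromosome 3 (96245497 to 96246052 and 96239779 to 96240374), were summed before a further fit, which was added once the data had been seen. Their sum was 1.37 and 1.40 CPM in scramble, 1.74 and 2.19 in Brd9, 1.42 and 1.52 in Baf250A, and 7.55 and 4.83 in Baf180. The Baf180 libraries were the highest, and the summed copies rose by a log2 fold change of 2.17 (SE 0.31, adjusted p = 0.00151 in edgeR), or 1.69 with GC and length offsets (adjusted p = 0.00035). Leaving out any 1 of the 4 libraries left it called, with log2 fold changes from 1.81 to 2.46. Taken singly, H2ac18 had 1.37 and 1.40 CPM in scramble and 7.55 and 3.38 in Baf180, and missed the threshold (log2 fold change 1.99, SE 0.70, adjusted p = 0.0569), while H2ac19 had 0 in both scramble libraries and in Baf180 replicate 1 and 1.45 CPM in Baf180 replicate 2. H3c10 (Hist1h3h, gene ID 319152, chromosome 13, 21717628 to 21718115), a canonical H3 gene, went the other way. It shares 79.3% of the windows of its coding sequence with H3c11, 73.5% with H3c2 and 70.2% with H3c8. It was tested singly, and reads could be divided among these genes. It had 1.55 and 1.45 CPM in scramble, 0.503 and 0.869 in Brd9, 1.13 and 0.208 in Baf250A, and 0 and 0.195 in Baf180. Scramble was highest and Baf180 lowest, with 4 counts over both Baf180 libraries against 53 in scramble, a ratio of 13.4 (exact 95% interval 4.95 to 51.1, counting error only). The call (adjusted p = 0.0184) was lost without scramble replicate 1 (0.0643), scramble replicate 2 (0.0594) or Baf180 replicate 1 (0.105).

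Over the members that passed the filter on low counts, 3 of 24 were called higher in Baf180 and 1 lower, 4 in all, against a background of 34.2% of 12420 genes tested (17.2% higher, 17.0% lower). The share of members was thus below that of all genes, but many members had few counts and a large SE, which limits calls. With GC and length offsets 3 were called higher and 3 lower, beside 38.1% of all genes. The 3 lower were H3c10, H1f4 (log2 fold change -1.61, adjusted p = 0.0171 in edgeR) and H3c3 (-2.28, adjusted p = 0.0368). Without the offsets neither H1f4 nor H3c3 was called in Baf180. For 7 of 24 both Baf180 libraries lay above both scramble libraries and for 8 both lay below, beside 35.0% and 37.1% of all genes tested. The median log2 fold change of the 24 was 0.12, and that of all genes tested -0.02 (-0.02 and -0.03 with the offsets). A member reaches the filter through the group in which it is high, so the 24 are not a picture of the family. Markers of differentiated muscle moved in the same libraries. Of 8 such genes, 4 passed the filter and 2 rose in Baf180, Acta1, the skeletal actin gene (log2 fold change 2.64, adjusted p = 8.03e-05), and Myog, the transcription factor myogenin (2.68, adjusted p = 0.00893). The summed level of the list was 17.3 and 17.9 CPM in scramble, 13.2 and 20.0 in Brd9, 41.5 and 36.3 in Baf250A and 117 and 96.2 in Baf180. Nearly all of it was Acta1 except in Brd9, where Acta1 was at 9.40 and 13.8 CPM. Myh8 was at 0 in all but the Baf250A libraries. The part of these and of the myoblast genes in the rise of H1f2, H2bc4 and H2aw was not tested.

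**Figure D2:**
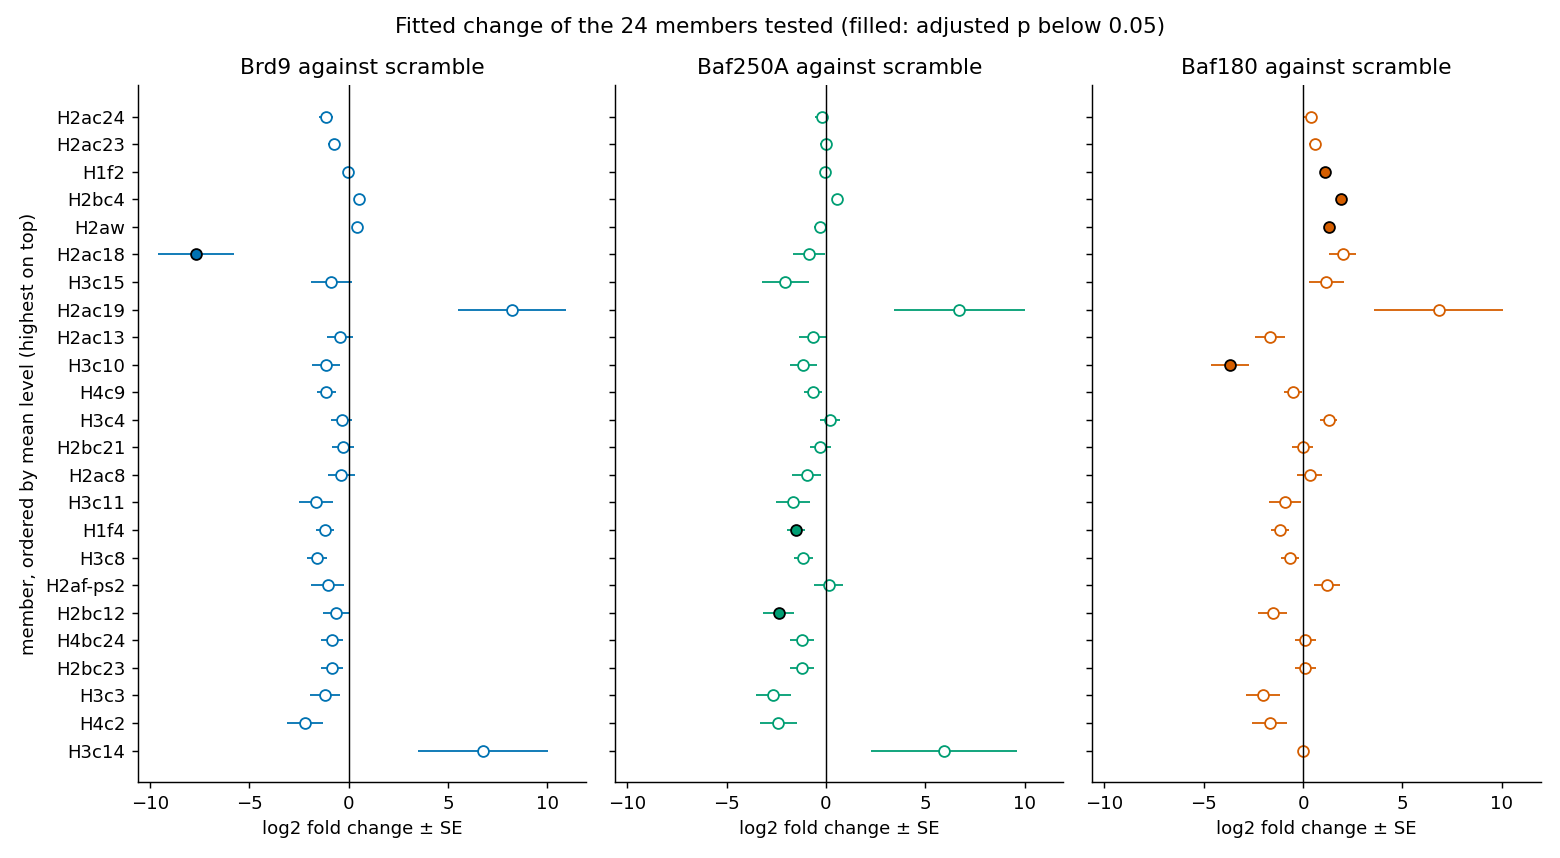
Fitted log2 fold change against scramble with its SE (horizontal axis) for the 24 members tested, ordered by mean level, in the 3 knockdowns. Filled points passed an adjusted p of 0.05; H1f2, H2bc4 and H2aw lie right of 0 in Baf180, at 1.12, 1.91 and 1.30, while the extreme values of H2ac18, H2ac19 and H3c14 belong to copies with 0 counts in some groups.

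The pair of abundant H2A genes was lowest in the Brd9 libraries. H2ac24 had 303 and 321 CPM in scramble, 110 and 173 in Brd9, 297 and 247 in Baf250A, and 556 and 255 in Baf180. Both Brd9 libraries were below the other 6. Brd9 differed from scramble by a log2 fold change of -1.14 (SE 0.33), which missed the threshold (adjusted p = 0.0582 in edgeR). H2ac23 had 119 and 105 CPM in scramble, 56.9 and 77.8 in Brd9, 121 and 103 in Baf250A, and 223 and 112 in Baf180. Again Brd9 was lowest without overlap, at a log2 fold change of -0.74 (SE 0.29, adjusted p = 0.123). The sum of the close copies H2ac11, H2ac23 and H2ac24 gave -1.02 (SE 0.31, adjusted p = 0.0692). DESeq2 called H2ac24 (adjusted p = 0.00183) and H2ac23 (0.0415), and so did the fit with GC and length offsets (log2 fold changes -0.90 and -0.55, adjusted p = 0.00332 and 0.0144). Limma-voom (adjusted p = 0.0553) and the replicate block (0.0833) did not call H2ac24. It was called without Brd9 replicate 2 (-1.49, adjusted p = 0.0495), but not without Brd9 replicate 1 (-0.83, adjusted p = 0.336), scramble replicate 1 (0.183) or scramble replicate 2 (0.223). The Baf180 libraries disagreed with each other, the first standing far above scramble and the second among the scramble and Baf250A values. The log2 fold change of H2ac24 in Baf180 was 0.38 (SE 0.33, adjusted p = 0.388), -0.29 without Baf180 replicate 1 and 0.83 without Baf180 replicate 2 (adjusted p = 0.0314). Baf180 replicate 1 is also the library in which genes of high GC content stood highest, and with the offsets the value was -0.04. In Baf250A both H2ac24 values lay just below scramble (-0.20, SE 0.33, adjusted p = 0.657) and those of H2ac23 overlapped it (-0.004, SE 0.285). With the offsets H2ac23 was called higher there (0.41, adjusted p = 0.0402).

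**Figure D3:**
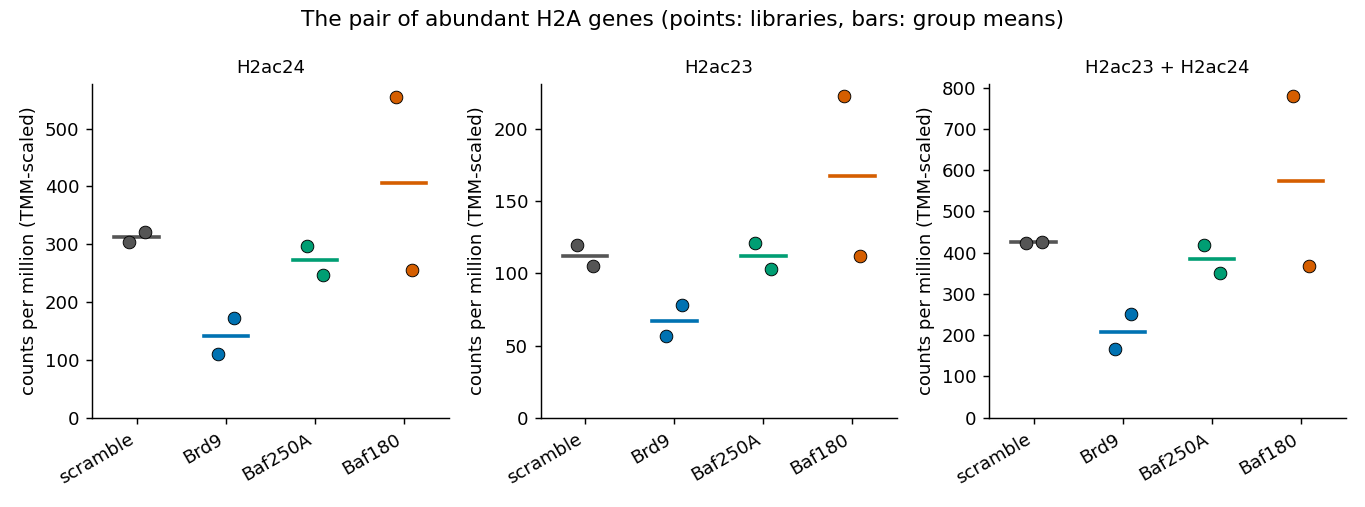
Level of H2ac24, H2ac23 and their sum in TMM-scaled CPM (vertical axis, from 0) in each of the 4 shRNA groups. Points are libraries and bars the group means of 2; the Brd9 points are lowest in each panel (110 and 173 CPM for H2ac24), and the 2 Baf180 points lie far apart (556 and 255).

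In Brd9, 1 of the 24 tested members was called, lower, beside 10.0% of all genes tested (6.45% higher, 3.57% lower). That member, H2ac18, had no count in either Brd9 library, where its copy H2ac19 had 1.73 and 2.19 CPM after 0 in scramble. With GC and length offsets 1 member was called higher and 3 lower, beside 30.1% of all genes. The sum of H2ac18 and H2ac19 did not pass the test (log2 fold change 0.52, SE 0.33, adjusted p = 0.303), so the call on H2ac18 does not hold for the copies together. In both Brd9 libraries 13 of 24 tested members lay below both scramble libraries and 3 above, against 31.2% and 33.8% of all genes tested, with a median log2 fold change of -0.83 beside 0.04 for all genes. With GC and length offsets the medians were -0.57 and -0.06. A member can pass the filter through high scramble values alone, which favours lower values in the knockdowns. The identical counts of H2bc23 and H4bc24 also both enter. Of the 4 tested markers of differentiated muscle, 3 rose in Brd9 from low levels, the fusion gene Mymk (log2 fold change 2.47, adjusted p = 0.0221), Myog (2.32, adjusted p = 0.0395) and the embryonic myosin gene Myh3 (3.01, adjusted p = 0.045). Acta1, the other one tested, was lower, at 9.40 and 13.8 CPM against 15.9 and 17.2 in scramble. It missed the threshold, and with GC and length offsets 3 of the 4 were called higher and 1 lower. DESeq2 called 1 of the 4, and the part of these genes in the member values was not tested.

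In Baf250A, 2 of 24 were called, both lower, beside 29.5% of all genes tested (15.5% higher, 14.0% lower). H1f4 (Hist1h1e, gene ID 50709, chromosome 13, 23621777 to 23622558), which encodes linker histone H1.4, had 1.02 and 0.867 CPM in scramble, 0.294 and 0.524 in Brd9, 0.300 and 0.364 in Baf250A, and 0.380 and 0.442 in Baf180. All 6 knockdown libraries were below scramble, and the log2 fold change in Baf250A was -1.49 (SE 0.46, adjusted p = 0.0375). H2bc12 (Hist1h2bk, gene ID 319184, chromosome 13, 22035821 to 22036320), an H2B gene, had 0.666 and 0.958 CPM in scramble, 0.484 and 0.578 in Brd9, 0 and 0.322 in Baf250A, and 0.300 and 0.267 in Baf180, with a log2 fold change of -2.38 (SE 0.79, adjusted p = 0.0481) in Baf250A. For H2bc12 taken singly, every knockdown library was again below both scramble libraries. H2bc12 shares 85.2% of the windows of its coding sequence with H2bc23 and H4bc24, so reads could be divided among them. Each of these copies had 0.376 and 0.697 CPM in scramble. They were below both scramble values in Brd9 and Baf250A, but not in Baf180 (0.490 and 0.713). The calls on H1f4 and H2bc12 are fragile, resting on 13 and 6 counts in Baf250A against 33 and 28 in scramble. That on H1f4 was lost without any 1 of the 4 libraries (adjusted p = 0.106 to 0.181) and that on H2bc12 without scramble replicate 1 (0.099), scramble replicate 2 (0.187) or Baf250A replicate 1 (0.16). Both were lost with GC and length offsets (log2 fold changes -1.06 and -1.97, adjusted p = 0.101 and 0.0793) and in DESeq2 (0.202 and 0.0975). With the offsets 2 members were called there, H2ac23 and H2bc4, both higher, beside 35.4% of all genes. In Baf250A 12 of 24 members lay below both scramble libraries and 1 above, beside 39.4% and 36.3% of all genes tested, and the median log2 fold change was -0.75 beside -0.02 for all genes. With GC and length offsets the medians were -0.51 and 0.005. The limits of the filter and of shared counts given for Brd9 hold in Baf250A as well, also for H1f4 and H2bc12, which were highest in scramble. Acta1 was the 1 tested marker of differentiated muscle to rise there (1.20, adjusted p = 0.00334). The part of it and of the fallen myoblast genes in the member values was not tested.

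Summed by class, the less abundant H1, H2B, H3 and H4 members were highest in scramble. Since single genes had few counts, classes were summed by library as a description, without a test. Scramble replicate 2 had 16449 genes with a count, against 14240 to 14810 in the other libraries. Each scramble library had 58 members with a count, and the knockdown libraries 52 to 55. The part of this in the sums and in the direction counts below was not tested. The 13 H4 genes summed to 5.22 and 5.20 CPM in scramble, 1.84 and 2.04 in Brd9, 2.31 and 2.22 in Baf250A, and 3.48 and 2.02 in Baf180 (90 to 93 counts per scramble library, 37 to 60 in the others). All 6 knockdown libraries were below scramble, with group means of 0.373, 0.435 and 0.527 of the scramble mean. The 12 H3 genes summed to 7.81 and 7.69 CPM in scramble, 3.44 and 4.92 in Brd9, 3.82 and 3.56 in Baf250A, and 6.84 and 5.24 in Baf180, again all below scramble. Once H1f2 was set aside, the other 5 H1 genes summed to 1.82 and 2.02 CPM in scramble and to 0.927 to 1.14 in the 6 knockdown libraries, a range that lay wholly below. The 18 H2B genes other than H2bc4 summed to 5.45 and 5.71 CPM in scramble and 2.52 to 4.27 in the knockdowns. H2A differed: its 17 genes other than H2ac23 and H2ac24 summed to 8.35 and 7.36 CPM in scramble, 7.08 and 7.59 in Brd9, 6.52 and 5.12 in Baf250A, and 15.8 and 12.2 in Baf180, where H2aw and the H2ac18 and H2ac19 pair are included. With the offsets the H4 ratios were 0.470, 0.619 and 0.432. The other sums above are without offsets. With them the H1 sum without H1f2 was higher in Baf250A but still below scramble, and the H2A sum without the abundant pair overlapped scramble there.

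**Figure D4:**
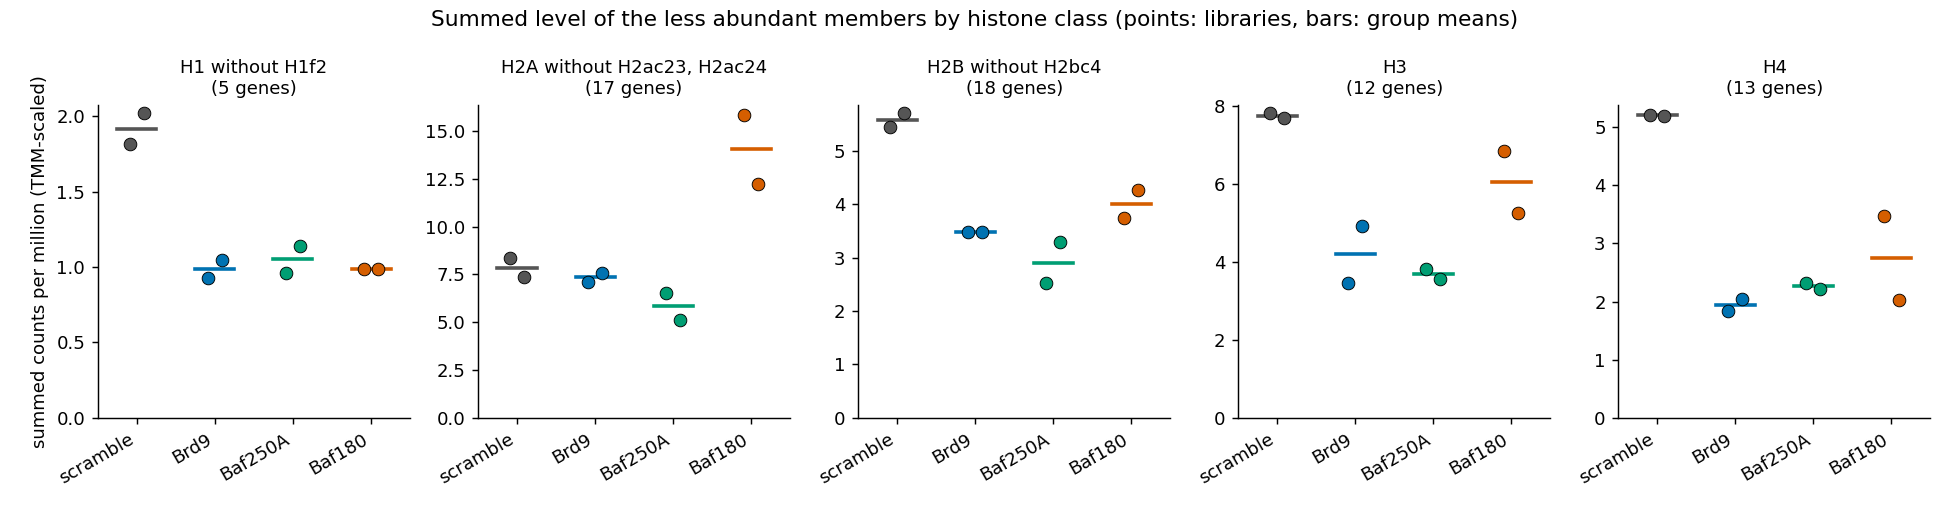
Summed level by library, in TMM-scaled CPM (vertical axes, from 0, each with its own scale), of the less abundant members of each histone class in the 4 shRNA groups. Points are libraries and bars the group means of 2; H4, H3, H1 without H1f2 and H2B without H2bc4 are highest in scramble (H4 at 5.22 and 5.20 CPM), while H2A without its abundant pair is highest in Baf180.

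Counted over all 69 members, filtered or not, the group mean was lower than in scramble for 54 (78.3%) in Brd9, 52 (75.4%) in Baf250A and 42 (60.9%) in Baf180. Among all 18145 genes with a count the shares were 51.4%, 55% and 55.2%. The member shares, unlike these, also include genes with no count (H1f6 and H2bc1). The 3 comparisons share the scramble libraries, so a high scramble value enters each of them. Of the other members named by level, H2ac13, an H2A gene, had 1.27 and 1.24 CPM in scramble, 1.36 and 0.465 in Brd9, 1.30 and 0.271 in Baf250A, and 0.296 and 0.495 in Baf180, so only the Baf180 libraries both lay below scramble (adjusted p = 0.115). H3c15, whose copy H3c14 takes an uncertain share of its reads, had 1.05 and 0.874 CPM in scramble, 1.04 and 0 in Brd9, 0 and 0.446 in Baf250A, and 2.69 and 1.71 in Baf180. Summed with its copies H3c13 and H3c14 it was at 1.52 and 1.39 CPM in scramble, 1.31 and 1.78 in Brd9, 0.905 and 0.620 in Baf250A, and 3.07 and 1.96 in Baf180. The sum was highest in Baf180 but did not pass the test against scramble (log2 fold change 0.79, SE 0.35, adjusted p = 0.106). The 45 members that did not pass the filter had means of 0 to 0.533 CPM over the 8 libraries.

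Between knockdowns, several members were lower in Brd9 and Baf250A than in Baf180, and GC and length offsets ended part of these calls. Of 24 members, 8 were lower in Brd9 than in Baf180 and none higher, beside 49.6% of all genes tested (23.3% lower, 26.3% higher). They were H1f2, H2bc4, H2aw, H2ac18, H2ac23, H2ac24, the H3 gene H3c4 and the pseudogene H2af-ps2. With the offsets 6 were lower and 1 higher, beside 32.6% of all genes. H2aw (log2 fold change -0.26, adjusted p = 0.478) and H3c4 (-1.06, adjusted p = 0.0861) were then not called, and H3c10 was called higher in Brd9 (3.02, adjusted p = 0.0373). For H2bc4 the log2 fold change was -1.39 (SE 0.20, adjusted p = 0.00347), or -0.78 with the offsets (adjusted p = 0.0478). H1f2 was at -1.17 (adjusted p = 0.00471), or -0.52 with them (adjusted p = 0.0435). The abundant H2ac24 was at -1.52 (SE 0.33, adjusted p = 0.00827) and H2ac23 at -1.32 (SE 0.29, adjusted p = 0.00836), with -0.86 and -0.64 under the offsets (adjusted p = 0.00441 and 0.00703). The call on H2ac24 was lost without Brd9 replicate 1 (-1.22, adjusted p = 0.0657) or Baf180 replicate 1 (-0.86, adjusted p = 0.0549). H3c4 had 0.366 and 0.344 CPM in Brd9 and 1.44 and 0.942 in Baf180, while its scramble values of 0.624 and 0.331 overlapped those of Brd9.

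Baf250A against Baf180 gave 5 members lower and none higher (H1f2, H2bc4, H2aw, H2ac18 and H3c15), beside 62.5% of all genes tested (31.7% lower, 30.8% higher). H2bc4 was at -1.37 (SE 0.20, adjusted p = 0.000548) and H1f2 at -1.18 (SE 0.20, adjusted p = 0.00109). With GC and length offsets neither was called (-0.50, adjusted p = 0.139, and -0.28, adjusted p = 0.192), nor was H3c15 (-2.57, adjusted p = 0.056). H2aw and H2ac18 then stayed lower and H3c10 was called higher in Baf250A (3.18, adjusted p = 0.018), 3 calls beside 54.8% of all genes. The median log2 fold change of the 24 members moved from -0.71 to -0.08. The summed H3c13, H3c14 and H3c15 were lower in Baf250A (-1.71, SE 0.37, adjusted p = 0.00357, or -1.04 with the offsets, adjusted p = 0.0126). The summed H2ac18 and H2ac19 were lower than in Baf180 in both knockdowns, at -1.64 in Brd9 (adjusted p = 0.00485) and -2.08 in Baf250A (adjusted p = 0.000484), with -0.99 and -1.19 under the offsets (adjusted p = 0.00692 and 0.0013).

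Between Baf250A and Brd9 the copy-dependent H2ac18 was the 1 member called by edgeR, beside 25.0% of all genes tested (10.0% higher, 15.0% lower). H2ac24 and H2ac23 were higher in both Baf250A libraries than in either Brd9 library, at log2 fold changes of 0.95 and 0.74 that missed the threshold (adjusted p = 0.0633 and 0.0903). With GC and length offsets both were called (1.17 and 0.96, adjusted p = 0.000404 and 0.000405), 3 members beside 44.3% of all genes, and DESeq2 called both as well. For the summed H3c13, H3c14 and H3c15 the log2 fold change was -1.01 (adjusted p = 0.0859), and were called with the offsets (-0.83, adjusted p = 0.0484).

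The genes that transcribe and process histone mRNA were described by a list of 22, all tested. In Baf250A 5 rose and 1 fell (29.5% of all genes called), among them Casp8ap2 (FLASH) and Npat, both of the histone locus body. With GC and length offsets 3 rose and none fell there (35.4% of all genes called). Casp8ap2 had 5.84 and 8.78 CPM in scramble and 17.4 and 30.3 in Baf250A (log2 fold change 1.70, adjusted p = 0.00379), and Npat 11.01 and 14.8 against 23.5 and 41.9 (1.34, adjusted p = 0.00959). The spliceosomal and U7 core protein gene Snrpd3 rose by less (0.52, adjusted p = 0.0198). In Baf180 6 of the 22 fell and none rose, beside 34.2% of all genes called. With the offsets 9 fell and 1 rose, beside 38.1%. Coil (coilin) had 13.8 and 14.9 CPM in scramble and 6.32 and 7.47 in Baf180 (-1.05, adjusted p = 0.00352), and the 3′ end cleavage genes Cstf2 (-0.77, adjusted p = 0.006) and Cpsf2 (-0.95, adjusted p = 0.00652) fell as well. Of the genes named after their values were seen, Npat and Casp8ap2 also fell there (-1.27 and -1.47, adjusted p = 0.0134 and 0.00983). Slbp, which binds the hairpin and was likewise picked afterwards, had 52.1 and 44.7 CPM in scramble, 62.1 and 46.7 in Brd9, 74.5 and 90.3 in Baf250A, and 29.0 and 42.7 in Baf180. It rose in Baf250A (0.77, adjusted p = 0.0273), and its values of -0.43 in Baf180 and 0.17 in Brd9 missed the threshold (adjusted p = 0.148 and 0.621). In Brd9 none of the 22 passed edgeR's adjusted threshold, 7 had an unadjusted p below 0.05, DESeq2 called 1, and with GC and length offsets 11 fell (30.1% of all genes called). The medians of the list were -0.14 in Brd9, -0.07 in Baf250A and -0.21 in Baf180, beside 0.04, -0.02 and -0.02 over all genes tested.

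Among histone variants encoded outside the clusters, 11 in all, 1 was called in Brd9, 2 in Baf250A and 4 in Baf180, beside 10.0%, 29.5% and 34.2% of all genes tested, and 4, 6 and 6 with GC and length offsets. Macroh2a2, which encodes a large H2A variant, rose in Brd9 (log2 fold change 0.61, adjusted p = 0.0338). In Baf250A the linker variant H1f0 (-0.48, adjusted p = 0.0174) and the H2A.Z gene H2az2 (-0.59, adjusted p = 0.0235) fell and none rose. In Baf180 2 rose and 2 fell, among them Macroh2a2 (0.77, adjusted p = 0.00588), Macroh2a1 (-0.54, adjusted p = 0.0128) and H2az1 (-0.54, adjusted p = 0.014). Of 21 histone chaperones, 3 were called in Brd9, 5 in Baf250A and 8 in Baf180, beside the same shares of all genes. In Brd9 the 3 fell, namely the FACT subunit Ssrp1 (-0.52, adjusted p = 0.0314), the chromatin assembly factor subunit Chaf1b (-0.78, adjusted p = 0.0351) and Asf1b (-0.49, adjusted p = 0.0414), and 13 did with GC and length offsets. In Baf180 8 fell, led by Nap1l1 (-1.21, adjusted p = 0.00151), Npm1 (-1.50, adjusted p = 0.00151) and the other FACT subunit Supt16 (-1.21, adjusted p = 0.00453). In Baf250A 3 rose, Npm1 (0.90, adjusted p = 0.0135), Atrx (1.51, adjusted p = 0.0206) and Supt16, and 2 fell, of which Cabin1 was at -0.62 (adjusted p = 0.0239).

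Without GC and length offsets, the summed S-phase and mitotic genes were below scramble in Brd9 and Baf180 and overlapped it in Baf250A. Calls are to be read beside 10.0% of all genes called in Brd9, 29.5% in Baf250A and 34.2% in Baf180. Of 43 S-phase genes, 10 fell and none rose in Brd9 (26 fell with GC and length offsets), with the cell cycle activator E2f2 at -1.26 (adjusted p = 0.00142), the origin licensing factor Cdt1 and the DNA polymerase alpha subunit Pola2 as the genes of lowest p. In Baf180 12 of the 43 fell and none rose, led by Gins1, Pola1 and Tyms, and with the offsets 18 fell and 1 rose. In Baf250A 9 rose and 3 fell (10 and 2 with the offsets), with Ccne2 at 2.05 and Ccne1 at -1.05. Their summed level was 5648 and 5494 CPM in scramble, 4078 and 4463 in Brd9, 5581 and 5480 in Baf250A, and 5233 and 4744 in Baf180. Of 25 mitotic genes 16 fell in Baf180, 1 in Brd9 (17 with GC and length offsets) and 1 in Baf250A, where 10 rose. With the offsets 4 rose and 3 fell in Baf250A, and 17 fell in Baf180. Their summed level was 3799 and 3557 CPM in scramble, 3146 and 3079 in Brd9, 3688 and 4287 in Baf250A, and 2736 and 2551 in Baf180. The part of these shifts in the member values was not tested.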

How the data were processed

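RNA sequencing of 8 libraries (4 shRNA groups of 2) gave the data. The authors deposited 1 table of estimated counts per gene for 24573 genes. HISAT2, StringTie, Cufflinks, Bowtie2, RSEM, DESeq2 and build mm10 appear in the submitters' processing notes with no role given, and the values, which are not whole numbers, have the form that RSEM gives. The sources used here give no versions, RNA selection or strandedness. Of the gene IDs, 24479 were matched to names by ID, 9 by accession and 85 not at all.

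Counts were rounded to whole numbers and tested in edgeR 4.0.16 (R 4.3.3) with 1 quasi-likelihood fit over all 8 libraries and no covariates, after filterByExpr (minimum count 10), which kept 12420 genes and 24 members, and TMM scaling. P-values were adjusted by Benjamini and Hochberg over all genes tested, with a threshold of 0.05, for 6 comparisons. The SE of a log2 fold change was derived from the test, as its absolute value over the square root of the quasi-likelihood F. It is to be read with care where a group has 0 counts. H3c14 in Baf180, at a fold change of 0, has no SE. CPM are counts per 1e6 of the TMM-scaled total. Alternatives were RLE and upper-quartile scaling, other filters, DESeq2 1.42.0, limma-voom (limma 3.58.1), a fit on only the 4 libraries compared, a block on replicate number, loess offsets (span 0.3) on GC content and gene length (98.95% of tested genes had a GC value), and leaving out each library. Summing members that share at least 90% of their coding 50-base windows was added after the data were seen. The fitting was tested on simulated counts.

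Members called against scramble and the 10 with the highest mean level are given by library, and for each other list up to 3 genes of lowest p. The members and gene lists were chosen with earlier results of these data known. Hairpins were searched in GENCODE vM21 transcripts, and intervals cover counting error only. Library totals ran from 17763076 to 20400863 counts, at which 3 counts are 0.147 to 0.169 CPM, so values near that level rest on few reads.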

Additional observations from a re-analysis of the deposited data

How the results depend on the processing

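Over all genes, the calls of Brd9 against scramble (1244) were the least stable: 2588 with no filter, 2540 on the 4 libraries alone, 721 with the replicate block, 3743 with GC and length offsets and 3178 with offsets and block. Baf250A against Brd9 (3108) gave 5499 and 5071 with offsets without and with the block, and Brd9 against Baf180 (6158) gave 4048 and 3471. Leaving out 1 library gave 231 to 1020 calls for Brd9, 1171 to 3721 for Baf250A and 1560 to 4514 for Baf180 against scramble, 1381 to 2572 for Baf250A against Brd9, 5455 to 7896 for Baf250A against Baf180 and 1150 to 6605 for Brd9 against Baf180.

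Members called, in that order of comparisons, were 1, 2, 4, 1, 5 and 8. They were 6, 9, 12, 6, 9 and 14 with no filter and 0, 0, 2, 0, 2 and 4 at a mean of at least 5 CPM, where fewer members are tested. DESeq2 called 3 in Brd9, 0 in Baf250A, 3 in Baf250A against Brd9 and 5 in Brd9 against Baf180. Upper-quartile scaling called 2 in Brd9, and limma-voom 0 in Baf250A against Brd9. The libraries of a comparison alone gave 6, 4, 10 and 2 in the first 4 comparisons. GC and length offsets gave 4 in Brd9, 3 in Baf250A against Brd9 and 3 in Baf250A against Baf180, and with the block 4, 3 and 2, and 3 in Brd9 against Baf180. The replicate block gave 1 in Baf250A, where it ended the call on H1f4 (adjusted p = 0.0569). Leaving out 1 library gave 0 to 1, 0 to 5, 3 to 7, 0 to 2, 3 to 9 and 3 to 8 members. Same-numbered libraries share only a number: the correlations of their deviations were -0.047, 0.123, 0.019, -0.468, 0.456 and -0.481.

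The values near 0 of the abundant pair changed sign. H2ac24 in Baf250A was 0.26 with offsets, without and with the block, and H2ac24 in Baf180 was -0.044 and -0.049. H2ac23 in Baf250A, at -0.004, was 0.021 with RLE scaling and in DESeq2, 0.001 with no filter, 0.008 at a mean of at least 5 CPM, 0.005 on the 4 libraries alone and 0.41 with offsets, without and with the block. Leaving out 1 library gave -0.094 to 0.162 for H2ac23 in Baf250A, -0.289 to 0.835 for H2ac24 in Baf180 and 0.000 to 0.994 for H2ac23 in Baf180, both lowest without Baf180 replicate 1.

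The sum over all members relative to scramble was 0.517 in Brd9, 0.89 in Baf250A and 1.365 in Baf180, and ranged from 0.425 to 0.609, 0.817 to 0.963 and 0.917 to 1.813 without 1 library. With offsets it was 1.212 in Baf250A. Without H2ac23 and H2ac24 it was 0.91, 0.981 and 1.178 with offsets, and 0.884 in Brd9 and 0.797 in Baf250A on unadjusted totals. With offsets H1 was 1.163 in Baf250A and 1.322 in Baf180, H2A 1.229 in Baf250A, H2B 1.129, 1.255 and 1.615, H3 0.623 in Baf250A, and H4 0.47 in Brd9 and 0.619 in Baf250A. On unadjusted totals H2B was 1.112 in Brd9, H3 0.518 in Baf250A, and H4 0.419 in Brd9 and 0.473 in Baf250A. With members matched by current symbol only, H4 was 0.458 in Baf250A. For all of these the cause was not tested. Of the values of single genes under all alternatives, 846 kept direction and side of the threshold, 124 lost the call, 20 gained it and 15 changed sign.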
